A study of Mus musculus with 4 samples.

Results

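The genes described here are 7 protein-coding genes of lineage factors and surface receptors of T helper 2 (Th2) cells, Gata3, Irf4, Batf, Nfil3, Maf, Ptgdr2 and Ccr4, with the 3 genes annotated on the strand opposite to Gata3, Maf and Ptgdr2, namely Gm13256, Gm15655 and Ccdc86. They were chosen by symbol, and all 10 were found among the 50600 genes of the deposited tables. RNA was sequenced from primary Th2 cells of mouse strain C57BL/6NJ in 1 group of 4 biological replicates, with no other cell type or condition to compare them with. The labels name no treatment or genetic change, leave the age unknown and the sex not collected, and link a protocol for the differentiation of CD4 T cells in culture. The file headers name 48 hours, in a time course of Th1 and Th2 cells. All 4 libraries carry 1 donor identifier and separate biosample identifiers, so the spread below is between these samples and may be technical in part. The assay is labelled as total RNA, while the name of the linked library protocol refers to polyadenylated RNA.

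Th2 cells, a CD4 T cell lineage with interleukin-4 and interleukin-13 among its cytokines, act in allergy and in immunity to worms. Interleukin-4 signals through STAT6 to induce GATA3, the factor that fixes the lineage and opens the cytokine genes, while BATF, a basic leucine zipper protein, binds with JUN proteins and IRF4 at joint sites in activated T cells. MAF activates the Il4 gene, NFIL3 is another leucine zipper factor that acts on Th2 cytokine genes, PTGDR2 (CRTH2) is the receptor through which prostaglandin D2 attracts Th2 cells, and CCR4 is the receptor of the chemokines CCL17 and CCL22.

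A count below is a read pair assigned to a gene by the authors, with strand taken into account, and TPM, which corrects a count for exon length and library depth, was computed from these counts and the exon lengths in the same tables. Totals were 1785970 to 2271993 counts per library. Only 5.48% to 7.53% of them lay in genes with no exon opposite another gene, so most of the depth lay in pairs of overlapping genes. Whether the strand setting of the counting matches the library kit is not given in the sources used here and was not tested. If it did not match, a count printed for any gene, with or without an opposite exon, would be of read pairs from the strand opposite to that gene. Every count, level, rank and share below is therefore that of the strand assigned in the deposited tables, and need not be the level of the named gene's own transcript. A count of 0 allows up to 3 counts, which is 1.32 to 1.68 CPM. In replicate 4 the ribosomal RNA genes CT010467.1 and Gm42418 together held 284525 counts, against 68635 to 110749 in replicates 1 to 3. As for the identity of the cells, 8 of 8 T cell markers had more than 3 counts in every library, where 26.5% of 21764 protein-coding genes did. Their summed level was 190.7 to 235.5 TPM, or 26.7 to 64.0 TPM for the 6 with no opposite exon. Because these are bulk samples, fewer cells of a type and less RNA per cell cannot be told apart.

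Gata3 lies on the minus strand of chromosome 2 (mm10, chr2:9857078-9890034, ENSMUSG00000015619.10, 3978 bp of exon). Gm13256 is an antisense gene on the plus strand (chr2:9877256-9878869, ENSMUSG00000086618.1) with exons of 189 and 331 bp. It shares 155 bp with Gata3. Of these, 93 bp are coding sequence in one Gata3 exon (chr2:9877352-9877444) and 62 bp are 5′ UTR of the exon at the RefSeq start (chr2:9878539-9878600). The first sequence shown is the end of that coding exon, read on the Gata3 strand from the GENCODE vM21 transcript, at chr2:9877352-9877474 (GRCm38, minus strand). Its capitals mark the 93 bases that are also exon of Gm13256, so a read pair there is given to one gene or the other by its strand alone.
Gata3 coding exon end: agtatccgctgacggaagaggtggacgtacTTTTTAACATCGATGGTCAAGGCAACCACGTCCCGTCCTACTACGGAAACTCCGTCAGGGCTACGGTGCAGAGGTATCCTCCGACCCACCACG

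The second sequence is the 250 bases before the Gata3 start in RefSeq, on the same build (chr2:9878601-9878850, minus strand), and it is shown because the whole of it lies inside the second exon of Gm13256. The exon of the opposite gene therefore covers this upstream region, the start and the beginning of the 5′ UTR. Capitals mark GGGCGG, the core of the GC box bound by SP1-type factors.
Gata3 upstream: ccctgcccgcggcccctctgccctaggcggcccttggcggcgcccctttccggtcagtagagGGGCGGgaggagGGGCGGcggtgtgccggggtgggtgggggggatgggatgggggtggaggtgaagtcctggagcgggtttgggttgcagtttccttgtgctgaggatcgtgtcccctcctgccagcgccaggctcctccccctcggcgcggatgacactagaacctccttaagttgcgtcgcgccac

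This window holds 19 CG dinucleotides, against a median of 6 over all promoters of the table, and 70% G or C, against 52.4%. Searched on both strands in windows of 300 bases around the start, GGGCGG was present in 5 of the 7 promoters found for these genes (Gata3, Irf4, Batf, Nfil3 and Ptgdr2) and in 35.7% of all 32851. The Nfil3 promoter was the richest of the 7 in CG, with 43 CG dinucleotides and 81.6% G or C in the 250 bases before its start. Ccr4 had 3, Ptgdr2 4, Batf 7, Irf4 11 and Ccdc86 18.

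The third sequence is part of the Ccr4 promoter (RefSeq, GRCm38, chr9:114496595-114496794, minus strand). It is shown because AP-1 proteins such as BATF with JUN bind TGANTCA, and BATF with IRF4 binds joint elements in which GAAA stands beside an AP-1 site. Capitals mark GAAA directly followed by TGANTCA.
Ccr4 upstream: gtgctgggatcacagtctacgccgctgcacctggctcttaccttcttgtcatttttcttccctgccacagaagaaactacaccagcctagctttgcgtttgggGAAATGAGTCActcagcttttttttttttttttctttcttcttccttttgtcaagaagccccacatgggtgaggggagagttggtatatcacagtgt

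TGANTCA, searched on both strands, was present in 1 of the 7 promoters, that of Ccr4, and in 2565 of 32851 promoters (7.81%). With GAAA directly before it, the motif was present in 41 promoters (0.12%), of which Ccr4 was one. The motifs were chosen after these sequences had been seen, and a match is a description of the letters, not of binding.

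The rows of Gata3 and Gm13256 together held 2068 to 2646 counts per library, and nearly all of them were assigned to Gm13256. Gata3 itself had 44, 35, 21 and 20 counts in replicates 1 to 4, and Gm13256 had 2300, 2218, 2625 and 2048. Gata3 was lower in replicates 3 and 4 than in replicates 1 and 2, whereas Gm13256 was highest in replicate 3, and the ranges of the pair were far apart. Gm13256 held 98.1% of the counts of the pair in replicate 1 (95% Wilson interval 97.5 to 98.6), 98.4% in replicate 2 (97.8 to 98.9), 99.2% in replicate 3 (98.8 to 99.5) and 99.0% in replicate 4 (98.5 to 99.4). These intervals cover counting error only.

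On the log2 scale the ratio of Gm13256 to Gata3 counts was 5.69, 5.97, 6.93 and 6.64 in the 4 libraries, with a pseudocount of 0.5. The mean was 6.31 ± 0.577 (SD, n = 4), positive in 4 of 4 libraries (two-sided exact sign-flip test over libraries, p = 0.13). The 4 libraries allow 16 sign assignments and hence no p below 2 of 16, so no ratio tested this way could pass 0.05. Per kilobase of exon the mean log2 ratio was 9.24. Among 1754 pairs of a protein-coding gene and an opposite gene that is not protein-coding, sharing at least 50 bp, the opposite gene was higher in every library in 74.6%, with a median log2 ratio of 3.98. The Gm13256 ratio stood at percentile 79.6 of these pairs, so its direction was that of most of them. Which gene's transcripts gave the counts was not tested.

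**Figure D1:**
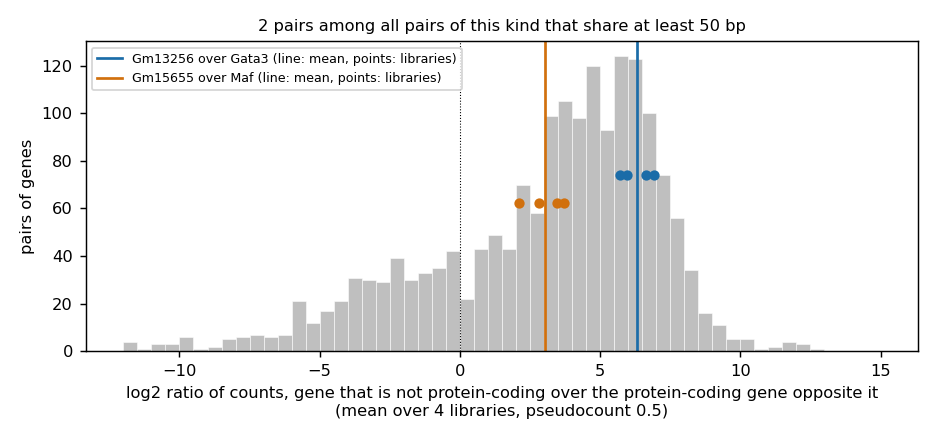
Histogram of the mean log2 ratio of counts in 1754 pairs (x axis, the gene that is not protein-coding over the protein-coding gene opposite it, pseudocount 0.5, mean over 4 libraries; y axis, number of pairs), with lines for Gm13256 over Gata3 and Gm15655 over Maf. The Gata3 pair, at 6.31, lies above the median of 3.98 and the Maf pair, at 3.02, below it.

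A second gene touches Gata3, on its own strand. The protein-coding gene 9230102O04Rik (chr2:9883041-9889540) shares 77 bp of exon with it and had 39, 23, 23 and 20 counts. Its exons total 935 bp, its counts were within 5 of those of Gata3 in replicates 1, 3 and 4 and lower in replicate 2, and the shared bases belong to both annotations.

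By the strand assigned, Gm13256 had the highest level of the 10 genes. With the strands turned, its 2048 to 2625 counts would be of read pairs from the Gata3 strand within the exons of Gm13256, and the 20 to 44 counts of the Gata3 row would be of pairs from the Gm13256 strand. Its level was 2922, 3003, 3431 and 3496 TPM, or 3213 ± 292 (SD, n = 4). It ranked at position 35 of 3362 genes that are not protein-coding and have an opposite exon, which is percentile 99.0. Gata3 stood at 7.31, 6.19, 3.59 and 4.46 TPM (5.39 ± 1.68), at percentile 68.4 of the 4801 protein-coding genes with an opposite exon, whose median was 1.355 TPM.

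Counts of a gene and of every gene opposite it were also summed. Read pairs of both strands enter such a sum only at exon bases that both genes share, 155 bp at Gata3. The joined exons at Gata3 span 4343 bp, so the sum still depends mostly on the strand assigned. It also depends on which opposite genes are annotated. The sums were 2344, 2253, 2646 and 2068 for Gata3 with Gm13256. For the factors of other helper lineages they were 1, 5, 2 and 4 at Tbx21, the Th1 factor gene, which has no opposite exon. The values at Tbx21 are thus of 1 strand only. The sums were 33, 40, 25 and 20 at Bcl6, the follicular helper factor gene, with Gm37419, which shares 21 bp with it. At Foxp3, the regulatory T cell factor gene, with Ccdc22 and Gm36995, they were 667, 607, 688 and 490. The Gata3 locus was above each of these 3 loci in every library, with no overlap of the ranges. Nearly all of its sum was the Gm13256 row, and Tbx21 has no annotated opposite gene that could hold such counts. This order is therefore not one of the factor genes' own transcripts.

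The mean log2 ratio of the Gata3 locus was 9.55 ± 0.936 over Tbx21, 6.32 ± 0.434 over Bcl6 and 1.93 ± 0.111 over Foxp3 (SD, n = 4). Each was positive in 4 of 4 libraries (exact sign-flip p = 0.13, also 0.13 adjusted over 4 ratios computed). Taking 3 counts as the least value of Tbx21, the first ratio was 9.31, and per kilobase of the joined exons the 3 were 8.74, 6.97 and 3.07. By the row of the factor gene alone, Gata3 over Foxp3 was -4.39 ± 0.488 and thus of the opposite direction. Own rows were 667, 606, 682 and 490 counts for Foxp3 and 2, 2, 0 and 0 for Bcl6. Gata3 over Tbx21 was 3.22 by those rows. At Foxp3 the counts were assigned to the row of the factor gene, while at Gata3 and Bcl6 most were assigned to the opposite row. The annotated opposite exons differ in length and in shared bases between these loci, from none at Tbx21 to 2 genes at Foxp3.

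**Figure D2:**
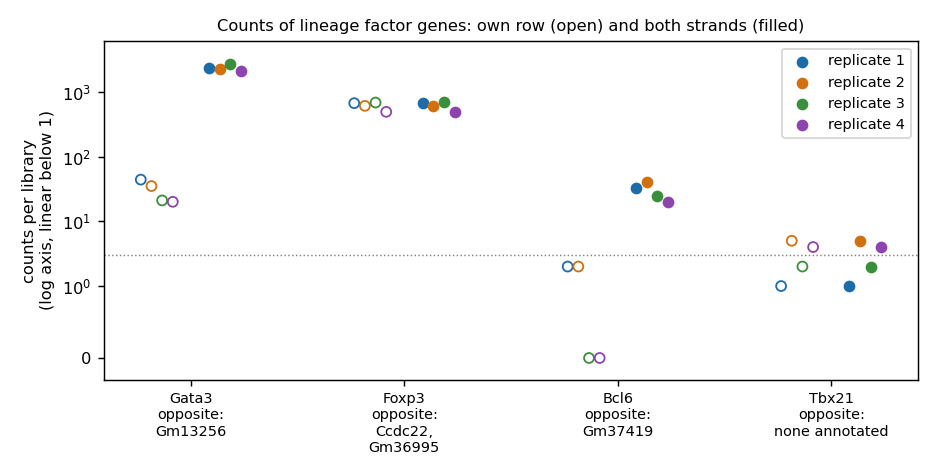
Counts per library (y axis, log scale, linear below 1) of 4 lineage factor genes on their own row (open points) and summed with every gene opposite them (filled points), 1 colour per replicate; the dotted line marks 3 counts. The sums at Gata3 lie between 2068 and 2646, above Foxp3 at 490 to 688, while on the own rows Foxp3 lies above Gata3.

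Maf was nearly absent from the counts. Maf (chr8:115682942-115707794, minus strand, ENSMUSG00000055435.6, 8241 bp of exon) had 0, 0, 1 and 0 counts. Gm15655 (chr8:115705078-115707233, plus strand, ENSMUSG00000086717.1) had 6, 5, 6 and 3. All 440 bp of Gm15655 lie within Maf exons, in blocks of 401 and 39 bp that are UTR of a Maf transcript. Gm15655 had more counts than Maf in each library, but in replicate 4 both were at or under the 3 counts that a count of 0 allows.

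The log2 ratio of Gm15655 to Maf was 3.70, 3.46, 2.12 and 2.81, or 3.02 ± 0.712 (SD, n = 4, exact sign-flip p = 0.13). Taking 3 counts as the least value of Maf, it was 0.68, so its size rests on the pseudocount. It stood at percentile 38.9 of the 1754 pairs. In level, Gm15655 was at 8.08 ± 1.46 TPM, at percentile 62.0 of its class of 3362 genes, and Maf at percentile 18.8 of the 4801. The sum of the Maf and Gm15655 rows was 6, 5, 7 and 3 counts, or 0.364 to 0.849 per kilobase of joined exon, against 476 to 609 per kilobase at the Gata3 locus.

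Of the large and small Maf relatives, Maff, a small Maf protein without an activation domain, had 127, 114, 126 and 103 counts and no opposite exon, at 40.3 ± 2.19 TPM. Mafg, another small Maf, was at 1.78 ± 1.10 TPM, while Nrl, a large Maf gene, had 0 counts in all 4 libraries.

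At Ptgdr2 most counts of the pair were assigned to the row of the receptor gene, unlike at Gata3 and Maf. With the strands turned, those 147 to 263 counts would be of read pairs from the Ccdc86 strand, and the 5 to 24 of the Ccdc86 row of pairs from the Ptgdr2 strand. Ptgdr2 (chr19:10937160-10942511, plus strand, ENSMUSG00000034117.3, 2644 bp of exon) had 249, 263, 216 and 147 counts. Ccdc86, a gene of a coiled-coil protein on the minus strand (chr19:10941481-10949266, ENSMUSG00000024732.7, 5774 bp), had 24, 7, 5 and 8. The genes meet tail to tail and share 1031 bp (chr19:10941481-10942511), UTR of both, which is 39.0% of the exon length of Ptgdr2 and 17.9% of that of Ccdc86. Ptgdr2 was lowest in replicate 4 and Ccdc86 highest in replicate 1, and the ranges did not overlap.

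Ptgdr2 held 91.2% of the counts of the pair in replicate 1 (95% Wilson interval 87.3 to 94.0), 97.4% in replicate 2 (94.7 to 98.7), 97.7% in replicate 3 (94.8 to 99.0) and 94.8% in replicate 4 (90.1 to 97.4). The log2 ratio of Ccdc86 to Ptgdr2 was -3.35, -5.13, -5.30 and -4.12, with a mean of -4.47 ± 0.915 (SD, n = 4), negative in 4 of 4 libraries (exact sign-flip p = 0.13). Per kilobase the mean was -5.60. Such imbalance was common: among 962 pairs of protein-coding genes on opposite strands, one gene was higher in every library in 919, and the higher gene held a median of 92.7% of the counts. The mean share of Ptgdr2, 95.3%, was at percentile 59.5 of them. In 469 of the 962 (48.8%) the higher gene was, like Ptgdr2, the one with more of its length shared.

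**Figure D3:**
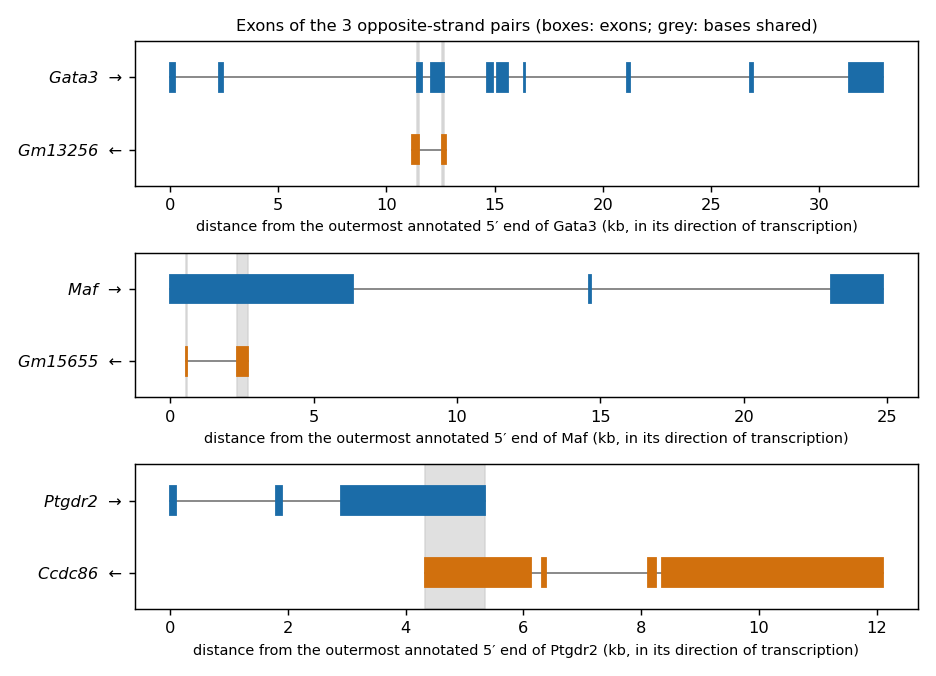
Maps of the 3 overlapping pairs drawn to scale, with distance in kb from the outermost annotated 5′ end of Gata3, Maf or Ptgdr2 on the x axis and 1 row per gene; boxes are exons and shading marks exon bases annotated on both strands. The shared bases are 155 bp near the RefSeq start of Gata3, 440 bp (all of Gm15655) in Maf and 1031 bp at the 3′ ends of Ptgdr2 and Ccdc86.

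Irf4, Batf, Nfil3 and Ccr4 have no exon opposite another gene, and the same held in GENCODE vM21. Batf (chr12:85686669-85709087, plus strand, ENSMUSG00000034266.5, 955 bp of exon) had 38, 39, 36 and 33 counts, or 26.3, 28.8, 25.6 and 30.7 TPM. The 4 libraries lay close together, at 27.8 ± 2.32 TPM (SD, n = 4). Irf4 (chr13:30749226-30766927, plus strand, ENSMUSG00000021356.9, 4715 bp) had 111, 115, 81 and 90 counts, or 15.6, 17.2, 11.7 and 16.9 TPM. Replicate 3 was the lowest, and the mean was 15.3 ± 2.54 TPM. Among the 16963 protein-coding genes without an opposite exon, whose median was 0.0192 TPM, Batf ranked at position 157 (percentile 99.1) and Irf4 at 323 (percentile 98.1).

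Batf was above its partner Irf4 per length in every library. The difference of log2(TPM + 1), Irf4 minus Batf, was -0.72, -0.71, -1.07 and -0.82, or -0.83 ± 0.167 (SD, n = 4, exact sign-flip p = 0.13). In plain counts, not corrected for length, Irf4 was the higher of the pair. The exon length of both genes is larger in GENCODE vM21 than in the tables, at 4903 bp for Irf4 and 1406 bp for Batf. Irf4 over Gata3 was 0.99, 1.34, 1.47 and 1.72 on that scale, with a mean of 1.38 ± 0.300 (SD, n = 4, exact sign-flip p = 0.13), but here the lower gene is the one with an opposite exon.

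Ccr4 (chr9:114490316-114504916, minus strand, ENSMUSG00000047898.7, 3093 bp) had 42, 42, 21 and 17 counts, or 8.97, 9.56, 4.61 and 4.88 TPM. Replicates 1 and 2 were above replicates 3 and 4, as for the Gata3 row. The total of all genes without an opposite exon was 171087, 145352, 120836 and 119122 counts. Per 100000 such counts Ccr4 was at 24.5, 28.9, 17.4 and 14.3 and Gata3 at 25.7, 24.1, 17.4 and 16.8, with replicates 1 and 2 still the higher ones. Batf was at 22.2, 26.8, 29.8 and 27.7. The mean of Ccr4, 7.01 ± 2.62 TPM (SD, n = 4), was at percentile 95.8 of its class. Ptgdr2, the other receptor gene, stood at 62.2, 70.0, 55.5 and 49.3 TPM (59.3 ± 8.89), which was percentile 89.4 of the genes with an opposite exon. The difference of log2(TPM + 1), Ptgdr2 minus Ccr4, was 2.66, 2.75, 3.33 and 3.10, or 2.96 ± 0.310 (SD, n = 4, exact sign-flip p = 0.13). That comparison sets a gene with an opposite exon against one without.

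Nfil3 (chr13:52967209-52981073, minus strand, ENSMUSG00000056749.7, 2026 bp) had 8, 3, 3 and 3 counts, or 2.61, 1.04, 1.01 and 1.31 TPM. Only replicate 1 was above 3 counts, so its mean of 1.49 ± 0.757 TPM (percentile 83.3) rests on few read pairs.

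Ordered by mean TPM, the genes ran Gm13256, Ptgdr2, Batf, Irf4, Gm15655, Ccr4, Gata3, Nfil3, Ccdc86 and Maf. Neighbours overlapped in range for Gm15655 and Ccr4, for Ccr4 and Gata3, and for Nfil3 and Ccdc86. Within libraries Gm15655 was above Ccr4 in 3 of 4, Ccr4 above Gata3 in 4 of 4 and Nfil3 above Ccdc86 in 3 of 4. Ccdc86 was at 1.35 ± 0.964 TPM (SD, n = 4), percentile 49.99 of its class, and at 0.891 TPM without replicate 1.

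**Figure D4:**
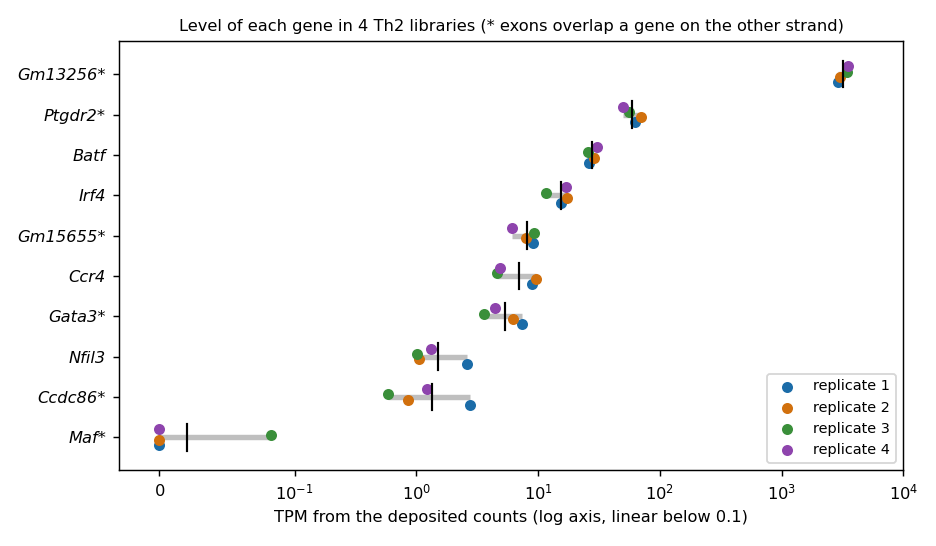
Level of each of the 10 genes in TPM computed from the deposited counts (x axis, log scale, linear below 0.1), with 1 point per library, a grey bar for the range and a black line for the mean; an asterisk marks genes with an opposite exon. Gm13256 lies near 3213 TPM, Ptgdr2, Batf and Irf4 between 11.7 and 70.0, and Maf is at 0 in 3 of 4 libraries.

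More than 3 counts in every library were found for 7 of the 10 genes, where 14.8% of all 50600 genes passed. These were Gata3, Gm13256, Irf4, Batf, Ptgdr2, Ccdc86 and Ccr4. Of the 7 protein-coding lineage factors and receptors, 5 passed, where 26.5% of 21764 protein-coding genes did. Nfil3, Maf and Gm15655 did not. Genes known in Th2 cells were picked by name, so a share above that of all genes says little beyond their detection.

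None of the 10 genes was called variable between the replicates. The goodness-of-fit test of edgeR asks whether a gene varied more than genes of like abundance, and it called 0.454% of 5064 genes at an adjusted p under 0.05. Only 6 of the 10 had enough counts to be tested, and 0 of the 6 were called or had an unadjusted p under 0.05. DESeq2 marked 0 of the 10 as dispersion outliers. The smallest edgeR p was 0.05003 for Gm13256 (adjusted p = 0.955), followed by 0.139 for Ccr4 and 0.296 for Gata3, and the largest was 0.915 for Batf. The difference between replicates 1 and 2 and replicates 3 and 4 in Ccr4 and Gata3 was thus not called by this test.

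Genes that act before, with or after these factors and receptors were taken in 10 groups by role, 105 genes in all. More than 3 counts in every library were found for 60 (57.1%), with a median of 1.36 TPM over the 105. Among those without an opposite exon it was 39 of 73 (53.4%), beside 18.95% of all such protein-coding genes. Among those with one it was 21 of 32 (65.6%), beside 53.4%. Levels below are mean TPM ± SD over 4 libraries for up to 3 of the highest of each group, and other genes are named after their values had been seen.

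In the interleukin-4 pathway 8 of 11 genes passed. The cytokine genes Il4 (18.5 ± 2.46) and Il13 (10.8 ± 3.89) led, followed by Stat6 (10.1 ± 0.490). Stat6 had 70, 65, 61 and 50 counts, where Nab2 opposite it had 223, 219, 250 and 239. Il4 had 38, 27, 37 and 24 counts and no opposite exon, so it lay between Batf and Irf4 in mean level. Il4ra, the receptor gene, had 20, 17, 16 and 12 counts, where Gm44876 opposite it had 631, 711, 764 and 511, a split in the same direction as at Gata3. The feedback inhibitor genes Socs3 and Socs5 had at most 2 counts in any library, and Socs1 had 4, 8, 5 and 9.

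The interleukin-2 and STAT5 arm, which opens the Il4 gene together with GATA3, had 6 of 6 genes above 3 counts. Il2 was at 75.5 ± 22.6, Il2ra, the high-affinity receptor chain gene, at 17.4 ± 3.35 and Stat5a, which overlaps Stat3, at 4.197 ± 1.201. In the Notch arm 5 of 6 passed, led by Dtx1 (5.25 ± 0.925), Rbpj (1.396 ± 0.460) and Notch1 (1.01 ± 0.205), with the target gene Hes1 at 0 counts. Notch1 had 23, 22, 15 and 19 counts. Opposite it, 0610009E02Rik had 1400, 1368, 1395 and 1004 and Gm13568 had 309, 286, 291 and 232. In the T cell receptor and NFAT arm 7 of 8 passed, led by the Ikaros gene Ikzf1 (4.86 ± 2.04) and Nfkb1 (4.77 ± 1.04).

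Partners and relatives of Batf and Irf4 passed in 8 of 12. Junb (116 ± 10.8), a gene of the JUN partner of BATF, Batf2 (48.8 ± 5.22) and Jund (32.98 ± 6.89) were the highest, and each has an opposite exon. Junb had 456, 355, 390 and 279 counts against 38, 40, 33 and 29 for Prdx2 opposite it. Jund had 109, 73, 69 and 56 counts against 22264, 18290, 20488 and 13040 for Gm11175. The JUN genes were thus on either side of such a split. Batf2 had 199, 165, 201 and 122 counts, while Arl2 opposite it had 4, 5, 5 and 5, so its place above Batf in mean level also rests on the strand assigned. Of the relatives without an opposite exon, Batf3 had 4, 6, 3 and 1 counts (1.53 ± 0.870) and Irf8 4, 4, 6 and 6 (0.527 ± 0.177), below Batf and Irf4, and Spi1, another partner of IRF4, was at 0.

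Relatives of Maf and Nfil3 passed in 3 of 8: Maff and Mafg, given above, and Dbp (5.61 ± 0.778), a clock output factor gene. Dbp had 27, 25, 27 and 15 counts against 91, 84, 81 and 71 for Sphk2 opposite it. In the group listed as GATA family and GATA3 cofactors, a role not tested here for each gene, 9 of 14 passed. Chd4, the remodeller that GATA3 recruits, was at 15.52 ± 2.00, Riox2 at 14.7 ± 1.75 and Gfi1, a repressor that promotes Th2 growth, at 11.1 ± 1.22. Chd4 has no opposite exon. Riox2 had 130, 119, 110 and 74 counts against 2878, 2816, 2931 and 1729 for Crybg3 opposite it. Gfi1 had 60, 49, 45 and 42 against 329, 328, 322 and 200 for A430072P03Rik. Gata1 had 2, 1, 0 and 2 counts and Gata2 and Gata4 had 0, so Gata3 was the only one of these 4 GATA genes above 3 counts in any library.

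In a group of opponents of GATA3 and other lineage factors 4 of 13 passed. They were led by Foxp3 (111 ± 3.96), Stat3 (11.6 ± 2.52) and Zbtb7b (4.80 ± 1.24), all with an opposite exon. Not every gene of the group opposes GATA3, and a place in it does not mean that Stat3 or Zbtb7b does. Foxp3 led by the strand assigned only: Ccdc22 opposite it had 0, 1, 6 and 0 counts, and these would be the pairs from the Foxp3 strand within the exons of Ccdc22 if the strands were turned. The fourth was Runx3, at 1.79 ± 0.955 and without one.

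Other surface markers of Th2 cells passed in 6 of 16. Tnfrsf4 (OX40, a costimulatory receptor) was at 21.8 ± 8.73, Ccr7 at 5.47 ± 2.19 and Cxcr6 at 2.30 ± 0.599. Il1rl1, the interleukin-33 receptor gene, had 0, 0, 1 and 0 counts, Ccr8 had 3, 3, 1 and 6 and Ccr3 0, all without an opposite exon. In level, Ccr8 ranged from 0.578 to 4.53 TPM on these few counts, just under the Ccr4 range of 4.61 to 9.56 TPM. Only replicate 4 was above 3 counts for Ccr8.

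Ligands, synthases and related receptors passed in 4 of 11. The prostaglandin E2 receptor genes Ptger4 (40.2 ± 0.608) and Ptger2 (4.94 ± 1.17) and the prostacyclin receptor gene Ptgir (3.03 ± 0.717) led. Ptger4 has opposite exons, so its lead rests on the strand assigned. It had 401, 382, 401 and 297 counts. Opposite it, Ttc33 had 7, 2, 6 and 10 and Gm15937 had 0, 1, 1 and 0. Hpgds, the hematopoietic prostaglandin D2 synthase gene, had 8, 4, 8 and 4 counts, and Ptgds, the other synthase gene, had 0. Ptgdr, the second prostaglandin D2 receptor gene, had 0 counts, and Gm16976 opposite it had 62, 55, 58 and 45. Ptgdr and Ptgdr2 were therefore on opposite sides, with the counts of the first locus on the other strand and those of the second on its own. For the ligands of CCR4, Ccl17 had 1, 1, 0 and 0 counts and Ccl22 0.

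Across the listed genes there were 22 pairs with an opposite gene that is not protein-coding and shares at least 50 bp, and the opposite gene was higher in every library in 16 (72.7%). That is near the 74.6% of all such pairs. The Gata3 pair, which is not among the 22, had the same direction as most pairs.

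**Figure D5:**
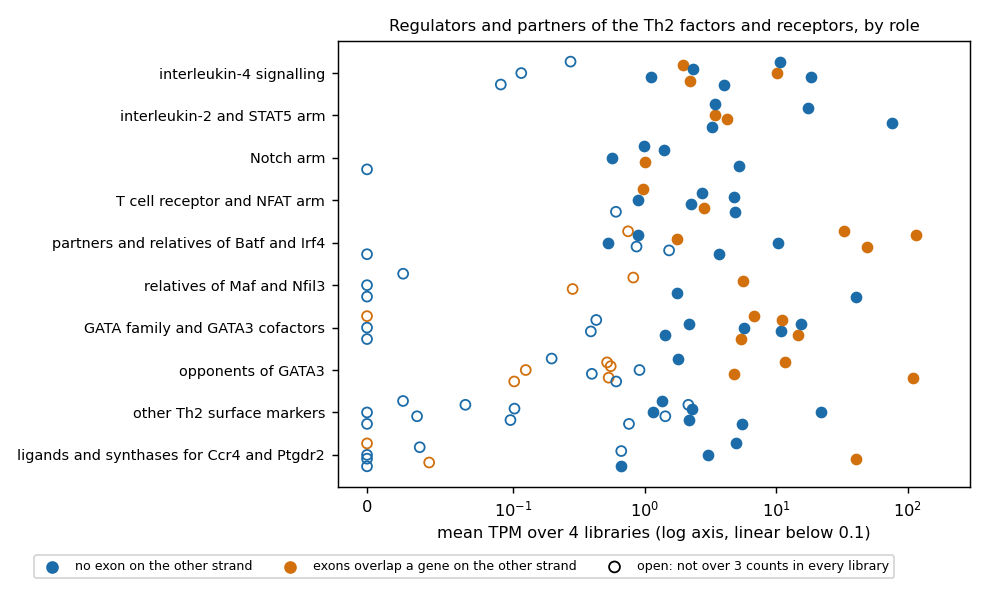
Mean TPM over 4 libraries (x axis, log scale, linear below 0.1) of 105 regulators, partners and ligands, 1 row per role; filled points had more than 3 counts in every library, and orange points have an exon opposite another gene. The highest points are Junb (116), Foxp3 (111), Il2 (75.5) and Batf2 (48.8), all orange but Il2.

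Several of the genes are also used by other cells, Ptgdr2 by eosinophils, basophils and group 2 innate lymphoid cells and Gata3 by the last of these. Of 8 mast cell, basophil and eosinophil markers, 1 (Hdc) had more than 3 counts in every library, the summed level was 0.808 to 1.95 TPM, and Fcer1a, Ms4a2, Mcpt8, Prss34 and Prg2 were at 0. Of 4 genes listed for group 2 innate lymphoid cells 0 passed, with a sum of 0.404 to 2.08 TPM and Klrg1 at 0. Rorb, also at 0, was in that list but is not a marker of these cells. The related gene Rora, which was not in it, has an opposite exon and had 2, 1, 4 and 2 counts. Of 4 B cell markers 1 (Cd79a) passed, with a sum of 1.87 to 6.35 TPM and Cd79b and Ms4a1 at 0. Of 5 macrophage markers 1 (Csf1r, which has an opposite exon) passed. The 5 summed to 191.6 to 205.4 TPM, about the range of the T cell sum, and the 4 without Csf1r to 1.05 to 2.70 TPM, with Adgre1 and Itgam at 0. Neither CD8 T cell marker and none of the 3 NK cell markers passed. None of the listed markers of other cells but Csf1r has an opposite exon. Of all protein-coding genes without an opposite exon only 18.95% passed, so few markers passing says little about these cells. With the strands turned, a 0 on such a row would not be a value of the gene's own transcript. The part of such cells in the levels above was not tested.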

How the data were processed

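RNA-seq of 1 group of 4 Th2 libraries was used. Per the file headers, the authors counted read pairs per gene with featureCounts 1.4.6-p4 (strand setting 1, both ends mapped, exons summed by gene, GENCODE vM13, mm10). Alignment was with STAR, going by a name in the file headers, and its version is not given in the sources used here. These deposited counts are whole and not normalized, and the deposited tables also give exon length in bp. Totals and the limit of a 0 count are given above.

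The members and lists were chosen with earlier results of these data known. Named are the 10 genes, every gene sharing exon bases with them, Tbx21, Bcl6 and Foxp3, and the 3 highest genes over 3 counts of each role. Symbols and gene types came from GENCODE vM21 (224 of 50600 genes unmatched), and coordinates from the deposited tables. Promoters came from RefSeq (GRCm38), where 7 of 10 genes were matched.

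TPM was computed from counts and lengths. Ratios of counts (pseudocount 0.5) and differences of log2(TPM + 1) were taken within libraries and tested by two-sided exact sign flips. An opposite gene shares any exon base on the other strand, and pairs for background shared at least 50 bp and had at least 1 count together in each library. Goodness of fit in edgeR 4.0.16 (with R 4.3.3 and limma 3.58.1) tested how far genes varied between replicates, with TMM, filterByExpr, trended dispersion and Benjamini-Hochberg adjustment at 0.05, after a test of the script on simulated data. Size factors and dispersion outliers came from DESeq2 1.42.0. Other steps used SciPy 1.17.1, numpy 2.4.6, pandas 2.3.3, Matplotlib 3.10.9 and Python 3.11.15. Alternatives were other pseudocounts, filters, lengths and scalings, a common dispersion, and each replicate left out. Scaling to genes without an opposite exon was added after the data had been seen. Some results under these rules are not reported here. Signal tracks were not used here.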

Additional observations from a re-analysis of the deposited data

Results flagged for a closer look

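The level of Maf in replicate 3, 0.0825 TPM, stood apart from the other 3 libraries, which were at 0. It is 1 count, under the 3 counts that a count of 0 allows. For continuous values chance marks about 1 in 20 groups of this size. That rate does not hold here, since any gene with 1 count in 1 library and 0 in the others is marked.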

How the results depend on the processing

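Of 94 alternatives tried for 14 results, 1 reversed: Gata3 over Foxp3 was -4.39 by the rows of the factor genes alone. The other 93 were labelled as the same. For ratios and differences that label means the same direction. For numbers of genes passing and for the order of levels it allowed a wide margin. Changes such as 42 or 47 listed genes instead of 60, and the changed orders given below, were thus among the 93. Each ratio or difference had the same direction in every library, so leaving out a replicate could not reverse it. A number of genes passing in every library likewise cannot fall when a library is left out. Many of the 93 therefore say nothing about stability. The 10 levels stayed within 1 SD in all 50 alternatives. Leaving out a replicate cannot move the mean of 4 libraries by 1 SD, so most of these could not fail. Only the scaling without the ribosomal RNA genes could, and the 10 levels stayed within 1 SD under it. The level of Ccdc86 was 0.891 TPM without replicate 1, against 1.35, and that of Maf 0 without replicate 3. The order of levels changed without replicate 3, where Ccr4 and Gm15655 swapped, and per unshared length, where Ccdc86 and Nfil3 swapped and Gm15655 has no unshared base. No member was called variable in any setting, but edgeR called 23 genes in all, against 15 with no filter on low counts, 32 with a common dispersion, 12 without replicate 3 and 7 without replicate 4. The unadjusted edgeR p was 0.0239 for Ccdc86 with no filter, 0.0472 for Ccr4 with a common dispersion and 0.0453 for Gm13256 without replicate 3. At 10 counts in every library 6 of the 10 genes passed and at 1 TPM 8, and of the listed genes 42 and 47 instead of 60. Without 1 library the smallest exact p is 0.25. No paired analysis was possible because there is 1 group only. Depth limits Maf, Gm15655, Nfil3 and Ccdc86, which had few counts.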
